A study of Caenorhabditis elegans with 7 samples.

Results

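Superoxide dismutases, catalases and peroxiredoxins are the enzymes that take superoxide and hydrogen peroxide out of the cell. The worm genes described here are the superoxide dismutases sod-1, sod-2, sod-3, sod-4 and sod-5, the catalases ctl-1, ctl-2 and ctl-3, and the peroxiredoxins prdx-2 and prdx-3. They were chosen by name from these enzyme families by a rule that uses no measured value, though with earlier results of these data known, and make up 10 of the 19859 genes that had a matched probe on the array. All 10 were measured well enough to be tested, among 14224 genes in all. None of the 10 passed the test for a change with tomatidine, and the 95% interval of the difference is given for each gene.

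Superoxide forms where electrons leak onto oxygen, above all at the mitochondrial respiratory chain. A superoxide dismutase converts it to hydrogen peroxide, and catalases and peroxiredoxins then reduce the peroxide to water, the catalases with a heme centre and the peroxiredoxins with a reactive cysteine that thioredoxin restores. In C. elegans several of these genes, sod-3 best known among them, are targets of DAF-16, the FOXO transcription factor that acts when insulin-like signaling is low, and they serve as readouts of oxidative stress resistance in studies of aging.

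The tomatidine group was wild-type Bristol N2 worms exposed from the L4 larval stage to 25 μM tomatidine, a steroidal alkaloid of unripe tomato, and collected on adult day 7 (3 arrays). The vehicle group was N2 worms given DMSO over the same period and also collected on adult day 7 (4 arrays). The labels name the controls as untreated in their source and as DMSO in their treatment, and the treatment protocol and the methods give DMSO. All worms were cultured at 25 °C on OP50 bacteria, and each array measured RNA from a pellet of whole worms on an Agilent one-colour array. According to the methods 1 hybridization combined equal amounts of other preparations, and which array that was is not given, so the arrays may not all be independent and p-values measure only the spread between these arrays. Because whole worms were measured, fewer cells of a type and less RNA per cell cannot be told apart.

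Between 53.0% and 69.7% of probes were well above background on an array, vehicle replicate 2 having the lowest share and tomatidine replicate 1, with 57.1%, the next lowest. These arrays also had the brightest negative-control spots. The average net signal of those spots was 237.2 on tomatidine replicate 1 and 424.4 on vehicle replicate 2, against 75.1 to 114.4 on the other 5. Slide 1 held tomatidine replicate 1 with vehicle replicates 1, 2 and 3, and slide 2 held tomatidine replicates 2 and 3 with vehicle replicate 4. A tag in the labels joins tomatidine replicates 1, 2 and 3 to vehicle replicates 2, 3 and 4, in that order, while vehicle replicate 1 has no partner. Of 14224 genes, 11 were higher with tomatidine at an adjusted p under 0.05 by limma and 0 were lower.

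The 10 genes were read by 24 probes, all of them well above background on all 7 arrays and 0 of them saturated. Values are given as scaled log2 signals, in which 0 is the mean of all probes on an array. Each array was divided by its own SD over probes, which ran from 3.83 to 4.19 log2 units on the tomatidine arrays and from 3.74 to 4.21 on the vehicle arrays, and multiplied by the mean SD, so a unit is a doubling of signal only on an array of average SD and the folds below are folds on this scale. On plain log2 signals shifted to each array's 75th percentile, the differences of the 10 genes ran from -0.10 for ctl-3 to 0.28 for sod-2, and 0 of 10 passed either. The value of a gene comes from its brightest kept probe, and probes differ in how well they bind, so values are compared between arrays and never between genes.

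The Cu/Zn superoxide dismutase sod-1 is the main cytosolic enzyme of the family. Its scaled log2 values were 9.46, 8.46 and 8.57 on tomatidine replicates 1, 2 and 3, against 8.39, 8.50, 9.05 and 8.57 on vehicle replicates 1, 2, 3 and 4. On this probe tomatidine replicate 1 stood above the rest, and the other tomatidine arrays lay among the vehicle arrays. On 3 of the 6 probes of sod-1 vehicle replicate 2 was the highest array instead. The fitted log2 difference was 0.20 (SE 0.30), a fold of 1.15 with a 95% interval of 0.740 to 1.79, and over the mean of the 6 probes the log2 difference was 0.12 (SE 0.26).

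The mitochondrial matrix is served by the manganese enzymes sod-2 and sod-3. For sod-2, which is expressed constitutively, the tomatidine arrays gave 6.60, 6.34 and 6.35 and the vehicle arrays 5.99, 6.28, 6.10 and 6.33 on the same scale. This was the 1 gene of the 10 whose groups did not overlap, and the gap between the lowest tomatidine and the highest vehicle array was only 0.0041 log2 units. Over all genes tested, 2.08% had groups that did not overlap. The log2 difference of sod-2 was 0.25 (SE 0.19), or 1.19-fold with a 95% interval of 0.897 to 1.58.

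The inducible sod-3 had values of 0.72, 0.93 and 1.33 with tomatidine and of 1.01, 0.95, 0.43 and 1.39 with vehicle. Both the lowest and the highest array were vehicle arrays, so the tomatidine values lay inside the vehicle range. The group means were 0.99 ± 0.31 (SD, n = 3) with tomatidine and 0.94 ± 0.39 (SD, n = 4) with vehicle, and the log2 difference was 0.048 (SE 0.28; fold 1.03, 95% interval 0.687 to 1.56).

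The other Cu/Zn enzymes are sod-4, made in secreted and membrane-bound forms, and sod-5, a minor cytosolic enzyme. The brightest sod-4 probe read 4.06, 3.72 and 3.80 with tomatidine and 3.58, 3.29, 3.83 and 3.88 with vehicle. Its groups overlapped, with vehicle replicate 2 lowest and tomatidine replicate 1 highest, and its log2 difference was 0.22 (SE 0.20; fold 1.16, 95% interval 0.863 to 1.57). The tomatidine values of sod-5 were 2.67, 2.82 and 3.04 and its vehicle values 2.19, 2.39, 2.70 and 2.98. Vehicle replicates 1 and 2 of sod-5 lay below every tomatidine array and vehicle replicate 4 above 2 of the 3, and its log2 difference of 0.28 (SE 0.22) was the highest of the 10 genes (fold 1.21, 95% interval 0.869 to 1.69).

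The catalases are encoded side by side, in the order ctl-2, ctl-1, ctl-3 with no other annotated gene between them. They are close paralogs, and the files hold no probe sequences, so signal shared between them by cross-hybridization cannot be told apart and their values are uncertain to that extent. ctl-2 encodes the peroxisomal catalase and ctl-1 a cytosolic one.

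The peroxisomal catalase gene ctl-2 had values of 6.65, 6.38 and 6.72 on the tomatidine arrays and of 6.18, 7.14, 6.14 and 6.62 on the vehicle arrays. Vehicle replicate 2 was higher than every tomatidine array and vehicle replicates 1 and 3 lower than every one of them, and the log2 difference was 0.060 (SE 0.25; fold 1.04, 95% interval 0.720 to 1.51). The tomatidine arrays of ctl-1 were close together at 6.07, 6.0004 and 6.09, against 5.66, 6.21, 5.82 and 6.18 with vehicle. The vehicle arrays of ctl-1 lay on both sides of all tomatidine arrays, and its log2 difference was 0.086 (SE 0.20; fold 1.06, 95% interval 0.789 to 1.43). For ctl-3 the values were 6.23, 6.08 and 5.93 with tomatidine and 5.83, 6.68, 5.96 and 6.44 with vehicle. It was the 1 gene of the 10 with a log2 difference below 0, at -0.14 (SE 0.23; fold 0.908, 95% interval 0.646 to 1.28), and its groups overlapped.

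The peroxiredoxin prdx-2 acts in the cytosol and prdx-3 in mitochondria. prdx-2 read 9.23, 8.76 and 8.91 with tomatidine and 8.35, 9.44, 9.02 and 8.78 with vehicle. The extremes were both vehicle arrays, replicate 1 at the low end and replicate 2 at the high end, and the log2 difference was 0.071 (SE 0.29; fold 1.05, 95% interval 0.678 to 1.63). prdx-3 read 8.38, 7.47 and 7.54 with tomatidine and 7.27, 8.10, 8.00 and 7.51 with vehicle. As with sod-1, tomatidine replicate 1 was the highest array while the other tomatidine arrays lay within the vehicle range, and the log2 difference was 0.074 (SE 0.29; fold 1.05, 95% interval 0.689 to 1.61).

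**Figure D1:**
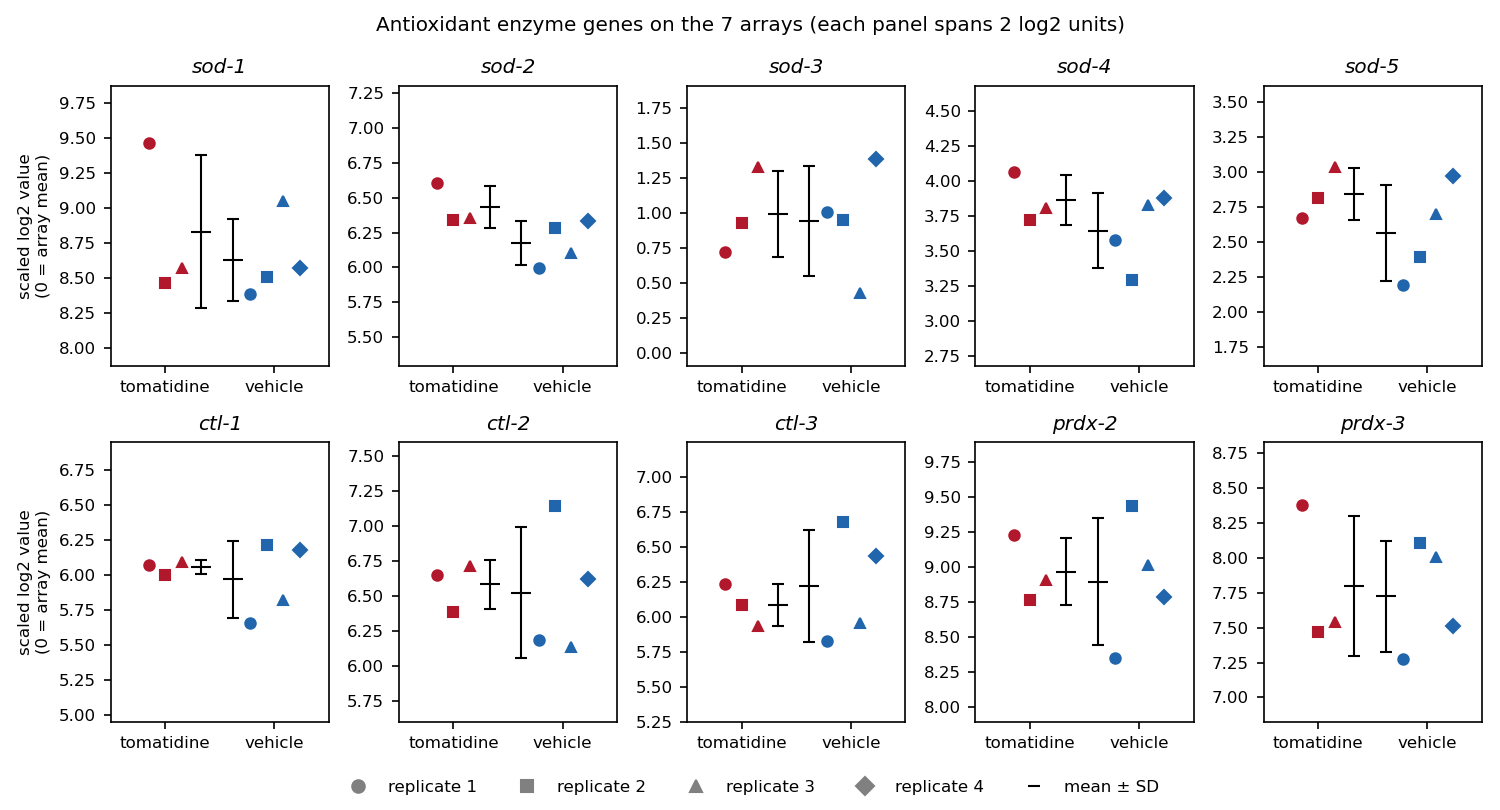
Scaled log2 signal (vertical axes, 0 being the mean of all probes on an array) of each of the 10 genes on the tomatidine arrays (left in each panel) and the vehicle arrays (right), with the group mean and SD. Points are single arrays; only for sod-2 do the groups not overlap, by 0.0041 log2 units.

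The limma test gave an adjusted p of 0.9998 for each of the 10 genes, so 0 of 10 passed, beside 0.0773% of all genes tested. At an unadjusted p under 0.05 the count was also 0 of 10, beside 1.22% of all genes (0.752% higher and 0.471% lower with tomatidine), and the lowest unadjusted limma p was 0.206, for sod-2. The z-ratio that the methods use, a difference of group means divided by the SD of such differences over all genes, stayed below the methods' threshold of 1.5 in size for 10 of 10 genes, with 1.03 for sod-5 as the highest, while 8.97% of all genes reached it. The methods state this threshold along with one on the false discovery rate, which was not added to the z-ratio here.

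The 95% intervals of all 10 genes include no change. Over the 10 genes they run from a fold of 0.646, the lower bound of ctl-3, to a fold of 1.79, the upper bound of sod-1. The interval of each gene holds for that gene alone, and a p above the threshold does not show that the groups were alike.

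**Figure D2:**
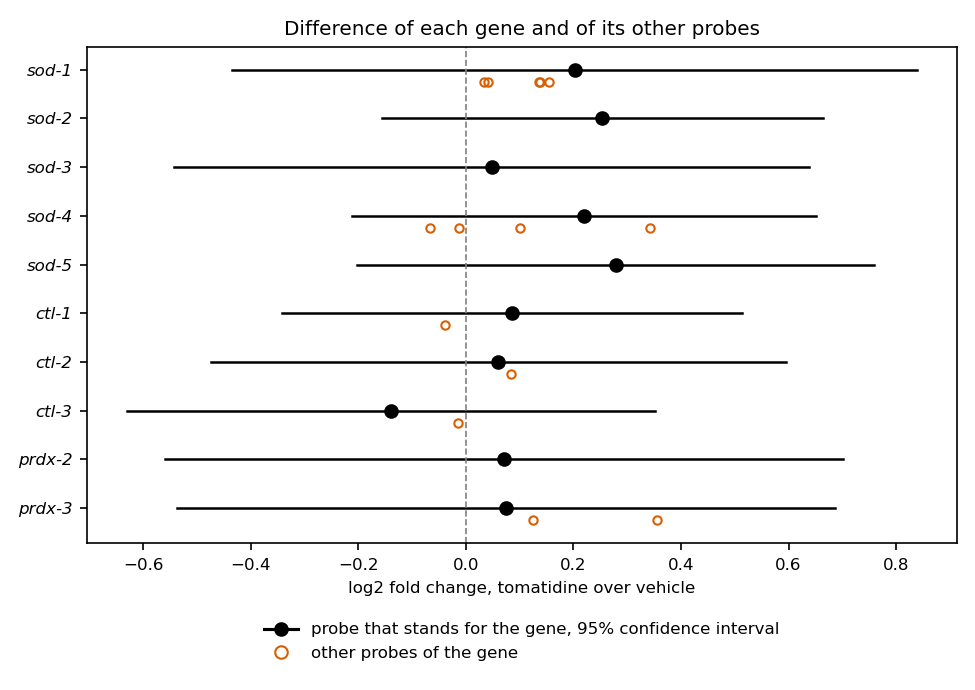
Log2 difference, tomatidine over vehicle (horizontal axis), of each of the 10 genes, with its 95% interval from limma and the differences of the other probes of the same gene as small marks. Every interval crosses 0; the estimates run from -0.14 for ctl-3 to 0.28 for sod-5.

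Read as a group, 9 of the 10 genes had an estimate above 0 (45.3% of all genes did) and 1 below 0 (54.7% did), with a median log2 difference of 0.080, beside -0.025 over all genes tested. This direction depended on single arrays. Without vehicle replicate 1, 5 of 10 were above 0 with a median of 0.025, and without vehicle replicate 2, 10 of 10 were above 0 with a median of 0.18. A fit on the tag pairs, to which vehicle replicate 1 adds nothing, likewise gave 5 of 10 above 0. Among the other scalings, the 75th percentile shift and the authors' own scaled table each gave 9 of 10 above 0, and normexp background correction with quantile normalization gave 8 of 10.

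Vehicle replicate 1 had the lowest scaled value of the 7 arrays for 7 of the 10 genes, sod-1, sod-2, sod-5, ctl-1, ctl-3, prdx-2 and prdx-3, beside 13.1% of all genes. The high end was split between a tomatidine and a vehicle array of the same tag. On tomatidine replicate 1 sod-1, sod-2, sod-4 and prdx-3 were highest (4 of 10, beside 9.82% of all genes; for sod-1 this held on 3 of its 6 probes and for sod-4 on 1 of its 5), and on vehicle replicate 2 ctl-1, ctl-2, ctl-3 and prdx-2 were (4 of 10, beside 23.6% of all genes). These shares are descriptions of the arrays, noted after the values were seen.

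Within each slide the estimates pointed different ways. On slide 1, tomatidine replicate 1 was above the mean of its 3 vehicle arrays for 9 of 10 genes, with a median log2 difference of 0.27, beside 44.3% of all genes and a median of -0.056. On slide 2, the mean of tomatidine replicates 2 and 3 was above vehicle replicate 4 for 2 of 10, sod-2 and prdx-2, with a median of -0.064, beside 37.7% of all genes and a median of -0.077. sod-1 had a log2 difference of 0.81 on slide 1 and of -0.055 on slide 2, a split of 0.87, but the split was 0.18 to 0.45 on its other 5 probes. For sod-4 the differences were 0.50 and -0.12 on its main probe, and its other 4 probes gave splits from -0.080 to 0.47.

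When the change in the tomatidine difference from slide 1 to slide 2 was fitted as an interaction in limma, the estimate was below 0 for 10 of 10 genes (51% of all genes), from -0.87 for sod-1 to -0.19 for sod-3. None of these passed, at an adjusted p of 0.9999 each or an unadjusted p under 0.05 (0 of 10, beside 1.92% of all genes). As tomatidine replicate 1 is the single tomatidine array on slide 1 and vehicle replicate 4 the single vehicle array on slide 2, a slide and those arrays cannot be told apart, and the 10 estimates share those arrays.

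By tag, tomatidine replicate 1 was above vehicle replicate 2 for 5 of 10 genes, tomatidine replicate 2 above vehicle replicate 3 for 6 of 10, and tomatidine replicate 3 above vehicle replicate 4 for 5 of 10, beside 42.7%, 52.9% and 49.2% of all genes. In all 3 pairs sod-2 and sod-5 were higher with tomatidine, 2 of 10, beside 11.1% of all genes. The log2 differences of sod-2 in the 3 pairs were 0.32, 0.23 and 0.021, and those of sod-5 were 0.28, 0.12 and 0.065. For both genes the pair with the tag fem, tomatidine replicate 3 and vehicle replicate 4, differed least. No other gene of the 10 kept its sign over the 3 pairs, and sod-1 spanned 0.96, -0.59 and -0.0035.

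**Figure D3:**
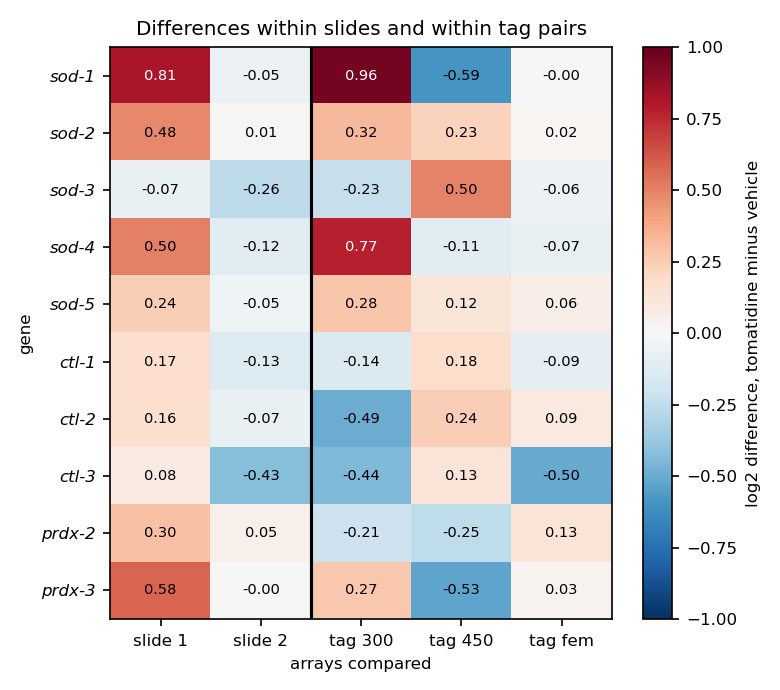
Log2 difference, tomatidine minus vehicle (colour scale), of each of the 10 genes (vertical axis) within each slide and within each of the 3 tag pairs (horizontal axis). The slide 1 column is above 0 for 9 of 10 genes and the slide 2 column for 2 of 10.

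Where a gene had several probes, these bear on how far a single probe can be trusted. The 6 probes of sod-1 all had a log2 difference above 0, from 0.034 to 0.20, and the one that stands for the gene gave the top of that range. The 5 probes of sod-4 disagreed in sign, 3 above and 2 below 0, from -0.067 to 0.34, and their correlations with each other over the 7 arrays ran from -0.51 to 0.94, so the values given for sod-4 rest on the choice of probe. The 3 probes of prdx-3 gave 0.074, 0.12 and 0.36. Of the pairs of catalase probes, those of ctl-2 gave 0.060 and 0.083, those of ctl-1 0.086 and -0.040, and those of ctl-3 -0.14 and -0.014. sod-2, sod-3, sod-5 and prdx-2 had 1 probe each. When the mean of a gene's kept probes was taken in place of the brightest probe, 9 of 10 genes were again above 0 with a median of 0.094.

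Over the 7 arrays the 10 genes did not vary as one block. Pearson's r over the 45 pairs of genes ran from -0.61 to 0.88 with a median of 0.40. It was highest between the peroxiredoxins prdx-2 and prdx-3, at 0.88, and lay between 0.80 and 0.86 among the catalases, whose paralogy was noted above. The superoxide dismutases were looser, from -0.61 to 0.68 over their 10 pairs: sod-1 and sod-4, of the Cu/Zn kind, had 0.68, while sod-3 ran against sod-1 at -0.61 and against prdx-3 at -0.59. The values of sod-1 rest on its probe, since with its other 5 probes r ran from -0.039 to 0.32 with sod-4 and from -0.54 to -0.29 with sod-3. Those of sod-4 rest on its probe as well. Its r with sod-3 was -0.090 on the main probe and 0.36 to 0.83 on its other probes. Arrays share slide, hybridization and overall brightness, 7 points are few, and these values are given as a description only.

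**Figure D4:**
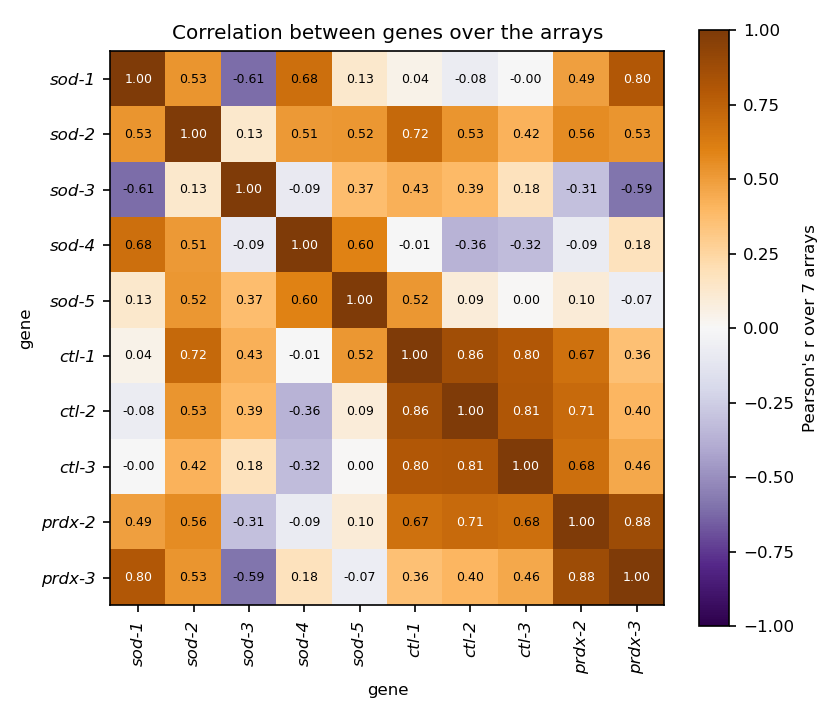
Pearson's r over the 7 arrays (colour and printed value) between each pair of the 10 genes, ordered as superoxide dismutases, catalases and peroxiredoxins on both axes. The catalase block lies between 0.80 and 0.86, and sod-3 with sod-1 gives the lowest value, -0.61.

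The gene most like each of the 10 over the 7 arrays, by Pearson's r among 14214 other genes, had an r of 0.97 or more in each case. For ctl-1 it was daf-22 (r = 0.99), the thiolase of peroxisomal fatty acid beta-oxidation, and for prdx-3 it was gdh-1 (r = 0.99), glutamate dehydrogenase. For prdx-2 it was nduv-2 (r = 0.99), a subunit of respiratory complex I, and for sod-2 spp-2 (r = 0.98), a saposin-like protein gene. The others were T27E9.2 for sod-1, F36G9.7 for sod-3, nssp-53 for sod-4, dcar-1 for sod-5, selt-1.1 for ctl-2 and Y53G8B.2 for ctl-3. Each was picked as the best of 14214 over only 7 arrays, and the values are given as a description.

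How tightly a gene was measured differed among the 10. The SD within groups was lowest for sod-2, at 0.15 log2 units (5.15% of all genes had a lower one), and was 0.21 for ctl-1. It reached 0.44 for prdx-3, above the median of 0.34 over all genes. For sod-1 the SD was 0.55 with tomatidine (n = 3) and 0.29 with vehicle (n = 4), and for prdx-3 it was 0.50 and 0.39. For each of the other genes the SD was larger with vehicle, as for ctl-2, with 0.18 for tomatidine and 0.47 for vehicle. The vehicle group thus had the larger SD for most of the 10 genes. How often this held over all genes was not counted, so it is not a trait of these genes.

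The genes around these enzymes were read in 5 lists of 60 genes in all, of which 59 were tested, trx-5 being the exception. None of the 59 passed at an adjusted p under 0.05 or at an unadjusted p under 0.05 by limma (0.0773% and 1.22% of all genes did). The thioredoxin system, which regenerates peroxiredoxins, was listed together with the peroxiredoxin prdx-6 and with msra-1 and sesn-1. Of this list 5 of 10 genes were above 0, with a median log2 difference of 0.026. In this list trx-4 had a log2 difference of -0.00097 (SE 0.20) and the mitochondrial thioredoxin trx-2 one of 0.24 (SE 0.22). The glutathione peroxidases and their redox partners had 8 of 14 genes above 0 and a median of 0.029, with glrx-22, a glutaredoxin, at -0.23 (SE 0.21) and the glutathione reductase gsr-1 at -0.14 (SE 0.23).

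The oxidases, which form superoxide or peroxide, were listed with the heme peroxidases, which use it. The oxidases and heme peroxidases had 2 of 10 genes above 0 and a median log2 difference of -0.067, and the heme peroxidases skpo-1 and skpo-3 gave 0.088 (SE 0.31) and -0.046 (SE 0.23). Of the mitochondrial genes whose mutants alter superoxide, 2 of 6 were above 0, with a median of -0.024. They include isp-1, the Rieske iron-sulfur protein of complex III, at 0.027 (SE 0.25) and nuo-6, a complex I subunit, at -0.11 (SE 0.24). Among the regulators of antioxidant genes 8 of 19 were above 0, with a median of -0.082, and the kinase gene akt-1 gave 0.035 (SE 0.25).

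At the methods' z-ratio threshold of 1.5, taken without their false discovery rate threshold, 5 of the 59 genes passed, beside 8.97% of all genes. They are named here after their values were seen: trx-3, trxr-2, gpx-4 and daf-2, with log2 differences of -0.63, -0.41, -0.48 and -0.43, and gpx-1, with 0.42. daf-2 encodes the insulin-like receptor and trxr-2 the mitochondrial thioredoxin reductase. All 5 have 95% intervals that include 0. Without tomatidine replicate 1, 1 of the arrays with bright negative controls, trx-3 was at 0.15 (SE 0.42) and gpx-4 at 0.10 (SE 0.37), so the sign of both rests on that array. With each array left out in turn, trxr-2 ran from -0.60 to -0.24, daf-2 from -0.56 to -0.29 and gpx-1 from 0.30 to 0.62. The transcription factors daf-16 and skn-1, also named after their values were seen, had -0.16 (SE 0.25) and -0.094 (SE 0.19).

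**Figure D5:**
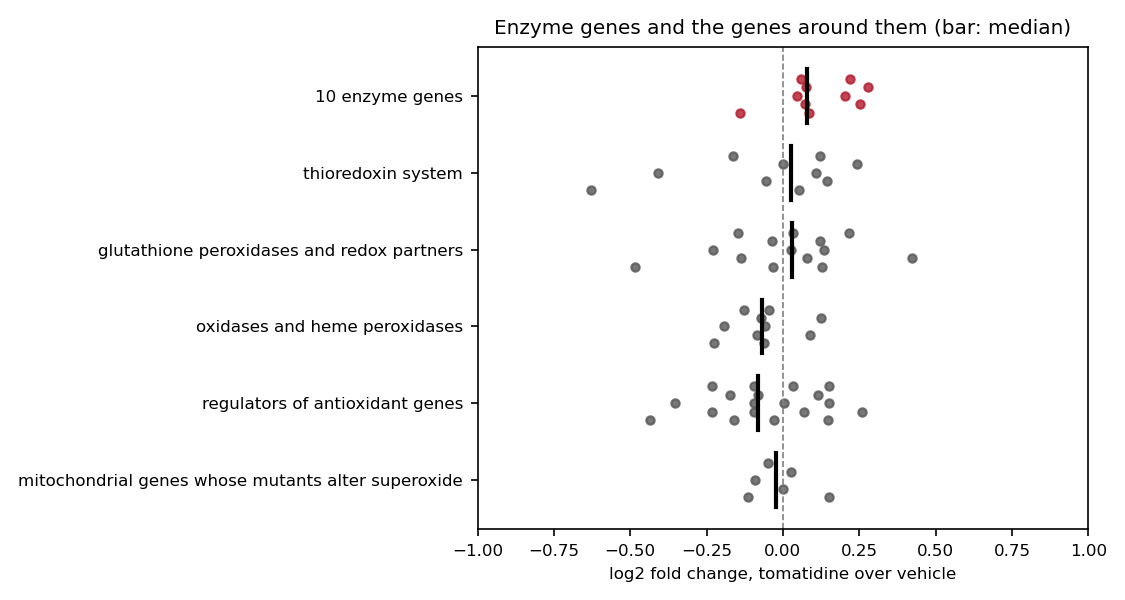
Log2 difference, tomatidine over vehicle (horizontal axis), of the 10 genes and of the genes of the 5 surrounding lists (vertical axis), 1 point per gene, with each list's median as a line. The medians lie between -0.082 and 0.080, and 0 of the points pass the adjusted threshold.

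Markers of the worm's tissues were read on the same arrays, since these enzymes are expressed in several tissues, the intestine prominently. Of 47 markers 43 were tested, rgef-1, dpy-7, spe-38 and peel-1 being the exceptions, and 38 were well above background on all 7 arrays. The 7 intestinal markers all had a log2 difference above 0 (45.3% of all genes did), with a median of 0.19. Their mean value per array was 6.45 to 6.90 with tomatidine and 6.12 to 6.90 with vehicle. Like 7 of the 10 enzyme genes, the intestinal mean was lowest on vehicle replicate 1. So was the mean of the mitochondrial genes whose mutants alter superoxide, at 5.44. The mean over the 10 enzyme genes was 5.70 to 6.01 with tomatidine and 5.44 to 5.90 with vehicle. The 5 markers of body wall muscle were also all above 0, with a median of 0.096. Their means were 5.06 to 5.74 with tomatidine and 4.95 to 5.64 with vehicle. Of the 8 of germline and oocytes, 7 were below 0 (54.7% of all genes were), with a median of -0.074. Their means were 8.29 to 8.84 with tomatidine and 8.10 to 9.04 with vehicle. Medians of the remaining sets were 0.044 for pharynx, 0.0044 for neurons, -0.0053 for epidermis, 0.13 for sperm and -0.090 for embryo. The epidermis markers ran from -0.25 to 1.76, and 1 of the 4 sperm markers tested was well above background on all 7 arrays. The part of tissue composition in the values of the enzymes was not tested.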

How the data were processed

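RNA of 3 tomatidine and 4 vehicle samples of whole worms was labelled with Cy3 and hybridised to Agilent 45220-feature arrays. The authors scanned the arrays and read them with Agilent Feature Extraction (version 11.5.1.1, per the file headers). The deposited intensity is the background-subtracted processed signal of each spot. The value recorded for the multiplicative detrending fit was 0 on vehicle replicate 2 and 0.149 to 0.175 on the other arrays. Vehicle replicate 2 may thus not have been detrended like the others, and the effect on its values was not tested. The authors converted log intensities to a z-score within each array, and the deposited table of these score values was used as an alternative.

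After removal of control spots and outlier flags, replicate spots were averaged, and log2 signals were turned into z-scores array by array, as in the methods, then brought back to log2 units with the mean array SD. Probes had to exceed background clearly on 3 or more arrays. Gene names came from RefSeq by accession or locus, which matched 34544 of 43603 probes, and 86 probes were left out because every spot was an outlier on some array. Each gene was represented by its brightest remaining probe.

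Groups were compared in limma (version 3.58.1, R version 4.3.3; lmFit and eBayes with trend, 5 residual degrees of freedom) over all 14224 genes, with Benjamini-Hochberg adjustment and a threshold of 0.05. The number of arrays limits the precision.

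Samples that share a label tag deviated from their group means together (r = 0.61, 0.19 and 0.51 over genes). A fit with the tags as a block was therefore made. The pairs at 0.61 and 0.51 also shared a slide, and the pair at 0.19 did not. The pair at 0.61 was that of the arrays with bright negative controls. Pairs that shared a slide but no tag had r = -0.53, 0.12 and 0.099. Vehicle replicate 1, which has no tag partner, had r = 0.35 with tomatidine replicate 2 and 0.35 with tomatidine replicate 3. The meaning of the tags is not given in the sources used here. The alternatives were the normalization, background correction, authors' table, probe filter, probe choice, outlier spots, moderation, the methods' t-test, slide and pairing as blocks, and each array left out. Every one of the 10 genes is named, and of the surrounding lists any gene at an unadjusted p under 0.05 and the 2 with the highest mean, of which 1 is not reported here. The genes, lists and rules were chosen with earlier results of these data known.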

Additional observations from a re-analysis of the deposited data

How the results depend on the processing

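None of the 10 genes passed at an adjusted p under 0.05 in limma, at an unadjusted p under 0.05, or under any of the 20 alternatives, and their lowest unadjusted p was 0.0831, for sod-2 by the methods' t-test and for sod-5 by limma without vehicle replicate 4. Of 200 log2 differences of single genes, 20 had the other sign. The 200 are not all separate checks. Limma without trend, the methods' t-test and the changes of the probe filter gave the main log2 differences again, so no sign changed there. The label tag block repeated the log2 differences found without vehicle replicate 1. The title number block repeated those found without vehicle replicate 4. With normexp and quantile normalization prdx-2 was at -0.10, and with slide as a block sod-3 was at -0.16. With the label tag as a replicate block ctl-1 was at -0.018, ctl-2 at -0.052, prdx-2 at -0.11 and prdx-3 at -0.075. Without both arrays of high negative-control signal, chosen after seeing the data, sod-1 was at -0.15 and prdx-3 at -0.088, and sod-4 kept its sign at 0.00070. With each array left out in turn, sod-1 ran from -0.11 to 0.39, sod-3 from -0.12 to 0.20, ctl-1 from -0.018 to 0.17, ctl-2 from -0.067 to 0.27, ctl-3 from -0.27 to 0.011, prdx-2 from -0.11 to 0.25 and prdx-3 from -0.22 to 0.24, while sod-2 (0.17 to 0.31), sod-4 (0.10 to 0.30) and sod-5 (0.15 to 0.41) kept their sign. The lowest values came without tomatidine replicate 1 for sod-1 and prdx-3, and without vehicle replicate 1 for ctl-1, ctl-3 and prdx-2.

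Over all genes, the 11 higher genes became 5 with normexp and quantile normalization, 5 with probes well above background on all 7 arrays (fewer genes tested), 6 in limma without trend, 23 with the label tag block, and 28 with the title number as a replicate block, which also called 1 gene lower; without both arrays of high negative-control signal 1 was lower. The methods' t-test called 0 after adjustment (unadjusted, 86 genes were higher and 136 lower at its threshold). With single arrays left out the count was 7 to 11. The cause was not tested. Title numbers do not pair the samples (r = -0.53, -0.45 and -0.33), and neither block changed the call of any of the 10 genes. The median of the 10 genes ran from 0.025 to 0.21 with single arrays left out.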

Other observations

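Probes of the same gene parted on vehicle replicate 2, an observation made after the values were seen. For sod-1, vehicle replicate 2 minus vehicle replicate 1 was 0.12 log2 units for the probe that stands for the gene and 0.63 to 0.9998 for its other 5 probes. The same difference for prdx-3 was 0.83, 0.80 and 0.032 over its 3 probes, and for sod-4 it ran from -0.35 to 0.59 over its 5 probes. Tomatidine replicate 1 minus vehicle replicate 2, the pair with the tag 300, was 0.96 for the main sod-1 probe and -0.10 to 0.19 for the others.

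Before scaling, the processed signal of all 24 probes of these genes was lowest on vehicle replicate 3 (76.5% of kept probes were) and that of 20 of the 24 was highest on vehicle replicate 2 (53.7% of kept probes were). Vehicle replicate 1, lowest for 7 of the 10 genes after scaling, was thus lowest for none of these probes before it. For the main sod-1 probe its processed signal, 105492, was the highest of all arrays. The order of the arrays given for the 10 genes is therefore that of scaled values.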
